A study of Mus musculus with 2 samples.

Results

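Of the 43941 windows of 50 kb in the deposited allele-specific table, 2548 lie on mouse chromosome 7, and these are the regions described here. They were taken by chromosome, with the 129 share of that chromosome already known (45.9% in replicate 1 and 46.7% in replicate 2), so this share and its direction are a description and carry no test. The series asked where the alleles of hybrid mouse cells differ in replication timing, folding, expression and open chromatin. Accessibility was measured by ATAC-seq, where a transposase inserts sequencing adapters into open DNA. There was 1 group of 2 replicate libraries, both from F121-6, a female embryonic stem cell line that is a hybrid of 129 and castaneus (CAS) mice, grown with serum and LIF on mouse embryonic fibroblasts inactivated with mitomycin-C. F121-6 is 1 line, no treatment or other genotype was compared, and whether the replicates are separate cultures is not stated in the labels. P-values therefore describe at most the spread between these libraries, which may be technical, and some describe counting error alone. The sources used here give neither the maternal strain nor the strain of the feeder cells.

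In a hybrid cell each autosome comes as a 129 copy and a CAS copy, and a DNA fragment that spans a sequence difference between the strains can be assigned to its copy, so both copies are measured in the same nuclei. Open DNA in stem cells concentrates at promoters rich in CG pairs and at enhancers. Chromosome 7 carries several well known imprinted domains, in which 1 copy is silenced according to the parent it came from: Peg3, the Prader-Willi and Angelman domain, Igf2 with H19, and Kcnq1. It also carries large clusters of olfactory, vomeronasal and Mrgpr receptor genes, which act in sensory neurons, and long neural genes in stretches that hold few other genes.

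Promoter sequences show how unlike these regions are, and 6 are printed because the results below return to their windows. Each is the 250 bases before a RefSeq gene start on GRCm38.p6, the assembly of mm10, written 5′ to 3′ with CG pairs in capitals. Trim28, a corepressor of retroelements, lies in the chromosome 7 window with the most counts. Klhl25 encodes a substrate adaptor of a ubiquitin ligase, and Eed a core subunit of Polycomb repressive complex 2. Dlg2 encodes a synaptic scaffold protein, Olfr494 an olfactory receptor, and Gm1966 is a predicted gene.
Trim28: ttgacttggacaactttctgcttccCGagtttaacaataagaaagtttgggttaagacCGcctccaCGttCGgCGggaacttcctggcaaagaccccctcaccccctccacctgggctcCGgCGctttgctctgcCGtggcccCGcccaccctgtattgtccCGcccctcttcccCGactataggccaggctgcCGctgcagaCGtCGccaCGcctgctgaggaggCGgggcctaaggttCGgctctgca
Klhl25: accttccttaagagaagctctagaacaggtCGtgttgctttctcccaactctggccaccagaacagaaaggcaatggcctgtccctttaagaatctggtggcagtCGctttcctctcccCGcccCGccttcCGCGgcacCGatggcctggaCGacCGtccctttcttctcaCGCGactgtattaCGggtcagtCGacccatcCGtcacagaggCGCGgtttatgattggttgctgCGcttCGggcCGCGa
Eed: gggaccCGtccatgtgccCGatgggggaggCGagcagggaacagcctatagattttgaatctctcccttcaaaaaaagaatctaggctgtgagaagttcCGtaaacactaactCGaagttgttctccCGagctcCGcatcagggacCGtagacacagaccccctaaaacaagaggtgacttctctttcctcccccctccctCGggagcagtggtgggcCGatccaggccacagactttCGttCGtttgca
Dlg2: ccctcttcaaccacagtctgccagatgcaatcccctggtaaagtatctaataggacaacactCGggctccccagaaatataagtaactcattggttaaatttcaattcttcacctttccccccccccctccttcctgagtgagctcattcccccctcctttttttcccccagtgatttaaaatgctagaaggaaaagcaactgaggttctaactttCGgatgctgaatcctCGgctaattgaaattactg
Olfr494: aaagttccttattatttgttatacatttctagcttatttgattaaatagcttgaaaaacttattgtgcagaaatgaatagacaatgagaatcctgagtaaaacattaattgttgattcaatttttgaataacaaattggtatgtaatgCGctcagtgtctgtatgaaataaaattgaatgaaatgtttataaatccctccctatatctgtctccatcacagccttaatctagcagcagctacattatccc
Gm1966: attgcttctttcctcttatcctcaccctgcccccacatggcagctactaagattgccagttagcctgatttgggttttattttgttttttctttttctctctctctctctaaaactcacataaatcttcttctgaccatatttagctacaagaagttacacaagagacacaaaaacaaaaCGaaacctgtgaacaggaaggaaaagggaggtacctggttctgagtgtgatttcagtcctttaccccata
These stretches lie at chr7:13023902-13024151 on the plus strand (Trim28), chr7:75848088-75848337 on the plus strand (Klhl25) and chr7:89980977-89981226 on the minus strand (Eed). The others lie at chr7:91090536-91090785 on the plus strand (Dlg2, at an internal start of the gene), chr7:108367242-108367491 on the plus strand (Olfr494) and chr7:106644646-106644895 on the minus strand (Gm1966). The first 3 hold 17, 20 and 12 CG pairs, and the last 3 hold 3, 1 and 1. Of the 2049 RefSeq promoters of coding genes on chromosome 7, taken from 250 bases before to 50 after the start, 91.8% hold a CG pair, which reads the same on both strands. On the other chromosomes 96.0% do.

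The table gives 1 value per window for each allele and replicate. The sources used here do not say what 1 count stands for, and the values on chromosome 7 run from 0 to 14. In windows with 4 or more counts the alleles of a replicate differed less than independent reads would, with a variance of 0.314 (replicate 1) and 0.455 (replicate 2) of the binomial variance. The exact Clopper-Pearson 95% intervals given with shares cover counting error alone. They are wider than single windows need, but sums over many windows can differ between the replicates by more than these intervals. On chromosome 10 they were 58.3 to 61.3% in replicate 1 and 54.4 to 56.8% in replicate 2, while those of chromosome 7 overlap. Replicate 1 held 6053 counts on the chromosome and replicate 2 held 7490, out of 90154 and 119807 in the whole table. Replicate 2 had more of its counts where genes are few: its total was 1.84 times that of replicate 1 in gene-poor windows and 1.10 times in ordinary windows. This difference between the libraries touches every comparison of classes below, and its part in them was not tested.

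In replicate 1 the chromosome held 2780 counts from 129 and 3273 from CAS, a 129 share of 45.9% (95% interval 44.7 to 47.2%). Replicate 2 gave 3497 and 3993, a share of 46.7% (45.6 to 47.8%), and the mean was 46.3% ± 0.538 (SD, n = 2). It ranked 4 from the lowest of 19 chromosomes in each replicate, and the other chromosomes together stood at 49.0% and 50.1%. Single windows leaned the same way. More CAS than 129 counts in both replicates were found in 335 windows, more 129 counts in 165, and opposite differences in 188. These are 13.1% and 6.48% of the chromosome's windows, against 9.87% and 8.96% of all windows in the table. Counts on CAS alone in both replicates were found in 101 windows (3.96%, against 2.94% of all windows) and counts on 129 alone in 51 (2.00%, against 2.72%). Because the chromosome was chosen by this contrast, nothing is read from these shares.

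Shares under 50% were found in most segments of the chromosome. In 10 Mb segments, the 129 share lay between 40.4% and 49.2% in replicate 1, where all 15 segments were under 50%. It lay between 41.9% and 51.3% in replicate 2, where 13 of 15 were under 50%, and no segment was above 50% in both. The whole table stood at 48.8% in replicate 1 and 49.9% in replicate 2, so 50% is above its level in replicate 1. Segments of the other chromosomes were not counted and this contrast chose the chromosome, so nothing is read from these counts. The segments with the lowest mean shares were 90 to 100 Mb (43.1% and 41.9%), 70 to 80 Mb (40.4% and 45.1%), 50 to 60 Mb (42.7% and 44.6%) and 30 to 40 Mb (44.2% and 44.1%). The first of these holds Dlg2 and Tenm4, the second Ntrk3 and Agbl1, and the third Luzp2 and Gabrg3. Gene-poor windows made up 46.0% of the windows at 90 to 100 Mb, 67.7% at 70 to 80 Mb and 55.3% at 50 to 60 Mb. They made up only 16.7% at 30 to 40 Mb, and 13.5% at 60 to 70 Mb, the next lowest segment (44.4% and 45.2%). The highest mean share, 48.8% and 51.3%, belonged to the first 10 Mb, whose 75 windows in the table include no gene-poor window. The whole 10 Mb holds 141 coding gene starts, some of them outside these windows. From the first window on, 64 of its 139 windows of 50 kb are left out of the table. The shares of the 15 segments in the replicates had a Pearson r of 0.63 and a Spearman rho of 0.66, given as a description, since segments of both replicates share the same genome sequence and alignment.

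**Figure D1:**
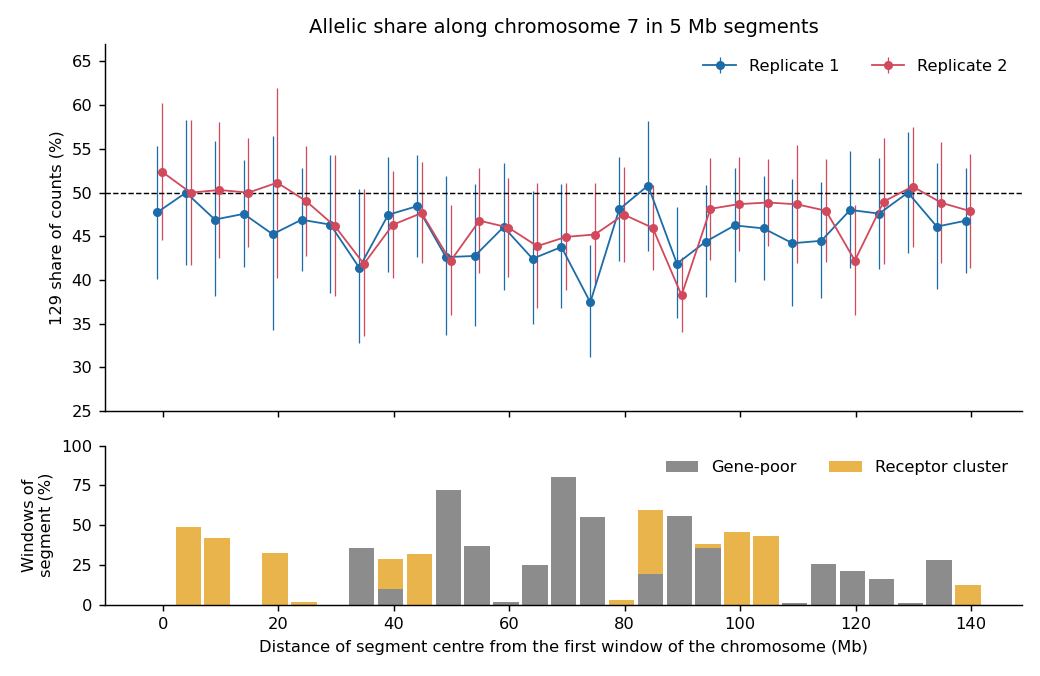
The 129 share of counts (%, upper panel, points with exact 95% counting intervals, dashed line at 50%) and the percentage of windows that are gene-poor or in receptor clusters (lower panel) in 5 Mb segments, by distance from the first window in Mb. Of the 29 segments with 20 or more windows, 22 lie under 50% in both replicates, with the lowest values at 37.5% (replicate 1, 75 to 80 Mb) and 38.3% (replicate 2, 90 to 95 Mb).

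Windows were divided by what they hold. A window was called imprinted where it lay in a listed imprinted domain, receptor cluster where it overlapped Olfr, Vmn1r, Vmn2r or Mrgpr genes or lay between such genes at most 200 kb apart, gene-poor where at most 2 coding genes started within 500 kb of its centre, and otherwise ordinary. Gene-poor windows had the lowest 129 share and ordinary windows a share close to that of the chromosome, with receptor clusters and imprinted domains in wide intervals around it. The 501 gene-poor windows had 293 on 129 against 387 on CAS, then 536 against 718 in replicate 2. Their 129 shares were 43.1% (39.3 to 46.9%) and 42.7% (40.0 to 45.5%). The 1693 ordinary windows had 2250 against 2628, then 2555 against 2794, shares of 46.1% (44.7 to 47.5%) and 47.8% (46.4 to 49.1%). On the other chromosomes gene-poor windows stood at 47.9% and 49.3% and ordinary windows at 49.3% and 50.5%.

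**Figure D2:**
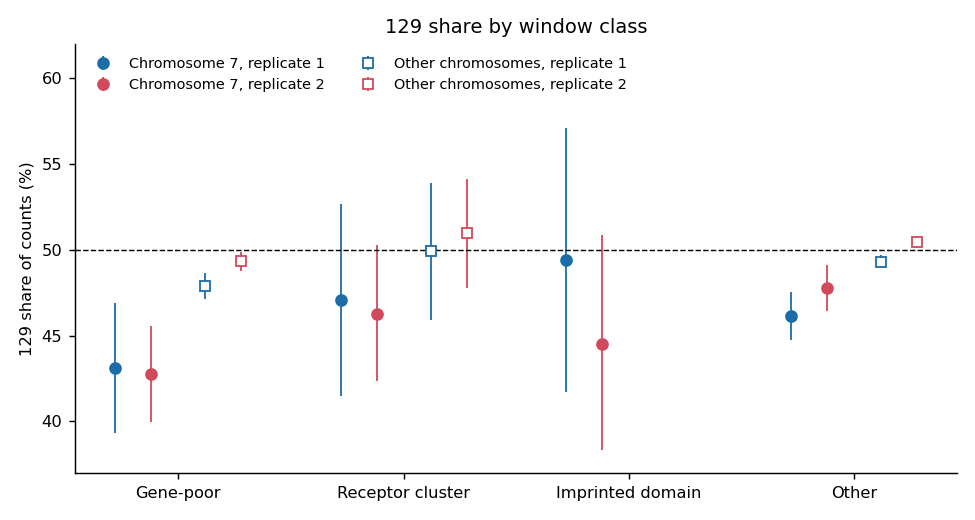
The 129 share of counts (%) in each class of windows (ordinary windows are marked Other), with exact 95% counting intervals, on chromosome 7 (filled circles) and on the other chromosomes (open squares), for replicates 1 (blue) and 2 (red). Gene-poor windows of chromosome 7 lie at 43.1% and 42.7%, under the ordinary windows of the same chromosome in both replicates.

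The gap between gene-poor and ordinary windows was 3.04 percentage points in replicate 1 and 5.02 in replicate 2, with gene-poor windows lower in both. Among the 19 chromosomes this was the second lowest difference in replicate 1, after chromosome 12 (-3.95), and the lowest in replicate 2, before chromosome 8 (-4.12). To ask whether a class departs from the level of its own chromosome, class sums were fitted with edgeR's quasi-likelihood test with each column's chromosome total as offset. Without the replicate as a block, 0 of 53 class sums passed (0% of those tested) and 0 had an unadjusted p under 0.05, and the gene-poor class had a log2 ratio of -0.20 (SE 0.49, edgeR adjusted p = 0.995). With the block, which pairs the alleles of 1 library, the log2 ratio of gene-poor windows was -0.21 (SE 0.07) and again 0% passed, with an edgeR adjusted p of 0.0886 and an unadjusted p of 0.00167. It was the lowest of the 19 gene-poor values. Without the windows of Dlg2 the value was -0.15 (SE 0.07, edgeR adjusted p = 0.587, an alternative chosen after seeing the data), and over all alternatives its adjusted p ran from 0.0768 to 0.9986. Of the 53 sums, 3 had an unadjusted p under 0.05 with the block, and DESeq2's Wald test passed 0, with 0 unadjusted.

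**Figure D3:**
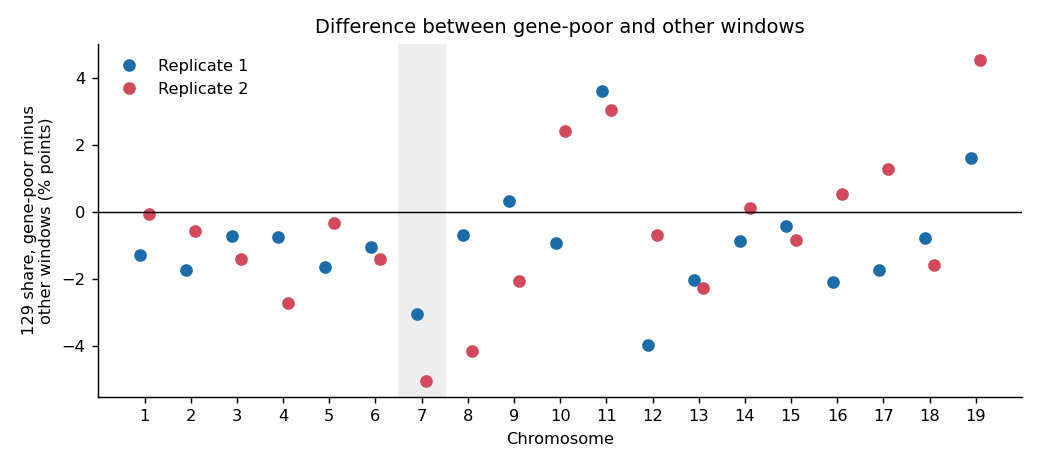
Difference in 129 share between gene-poor and ordinary (other) windows in percentage points for each of the 19 chromosomes, replicates 1 (blue) and 2 (red), with chromosome 7 shaded. Chromosome 7 lies at -3.04 and -5.02, the second lowest value in replicate 1 and the lowest in replicate 2.

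The share was higher where genes were denser, though not at each step. Windows with no coding gene start within 500 kb (167 windows) had 129 shares of 40.8% and 42.2%. With 1 to 2 starts (389 windows) the shares were 43.9% and 42.9%, with 3 to 5 starts (358 windows) 44.9% and 46.9%, and with 6 to 10 starts (519 windows) 44.9% and 45.2%. Above that, windows with 11 to 20 starts (520) stood at 46.8% and 48.3% and those with over 20 (595) at 47.3% and 49.2%. On the other chromosomes the shares ran from 48.0% and 49.2% with no start to 49.2% and 50.9% with over 20.

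Windows with a CG-rich promoter were nearer to balance than windows without a promoter. The 532 windows whose richest promoter holds 10 or more CG pairs had shares of 47.6% (45.8 to 49.5%) and 49.3% (47.4 to 51.2%). With 4 to 9 CG pairs the shares were 47.1% and 48.4%, and with 0 to 3 they were 44.8% and 46.3%. The 1582 windows with no listed promoter had 43.9% (41.9 to 45.9%) and 44.5% (42.9 to 46.2%). CG-rich windows also held the most counts per window, 5.29 and 5.18 per window over both alleles, against 1.55 and 2.29 without a promoter, and 1.88% of them had no count. On the other chromosomes CG-rich windows had shares of 49.8% and 50.8%, and windows with no promoter 48.6% and 49.9%. In the fit of these classes against the level of their chromosome, which was chosen after seeing the data, 0% of 73 sums passed, with the replicate block (2 at an unadjusted p under 0.05) and without it (0). With the block, windows with no promoter had a log2 ratio of -0.12 (SE 0.04, edgeR adjusted p = 0.166, unadjusted p = 0.00228), and CG-rich windows 0.12 (SE 0.04, edgeR adjusted p = 0.650).

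**Figure D4:**
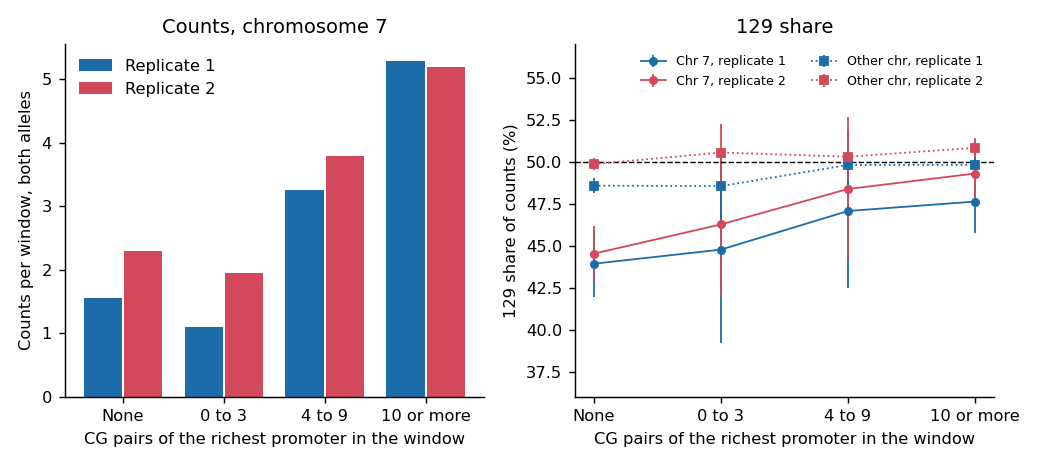
Counts per window over both alleles on chromosome 7 (left, bars) and 129 share of counts (%, right, with exact 95% counting intervals, circles for chromosome 7 and squares for the other chromosomes), for replicates 1 (blue) and 2 (red), by the CG pairs of the richest promoter in the window. On chromosome 7 the share runs from 43.9% and 44.5% without a promoter to 47.6% and 49.3% with 10 or more CG pairs.

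The longest gene-poor stretches were described singly. Of the 8 stretches with 20 or more windows, 7 had 129 shares under 50% in both replicates. So did 13 of the 15 segments of 10 Mb and 22 of the 29 segments of 5 Mb with 20 or more windows. Nothing particular to gene-poor stretches is read from this count. The lowest, inside Dlg2 at 90.95 to 92.15 Mb, stood at 35.1% and 28.0%, from 20 counts on 129 against 37 on CAS, then 37 against 95. The longest, at 68.75 to 73.25 Mb with Mctp2 and Nr2f2, a nuclear receptor of development, had 54 and 73, then 84 and 103 counts (42.5% and 44.9%). The stretch at 52.35 to 55.30 Mb with Luzp2 had 29 and 37, then 74 and 93 (43.9% and 44.3%), and the stretch at 93.40 to 96.85 Mb with Tenm4 had 51 and 69, then 113 and 139 (42.5% and 44.8%). The exception was the stretch around Hs3st4, a heparan sulfate sulfotransferase gene, at 124 to 125 Mb, with 15 and 12, then 22 and 22 counts. Total counts in these stretches differed between libraries: replicate 2 had 2.53 times the counts of replicate 1 in the Luzp2 stretch and 1.47 times in the Nr2f2 stretch.

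Among the long genes of the chromosome, Dlg2, the longest, had the widest difference in counts. It did not have the lowest 129 share in either replicate. Ntrk3, with 9 windows, had shares of 26.1% in replicate 1 and 32.0% in replicate 2, and Zfp536, with 8, had 42.9% and 22.2%. Dlg2 spans chr7:90476188-92449246 on the plus strand, 1973 kb in 40 windows, introns included. Its protein holds receptors and channels in place at synapses. Replicate 1 had 42 counts on 129 and 68 on CAS there, and replicate 2 had 74 and 160, shares of 38.2% (29.1 to 47.9%) and 31.6% (25.7 to 38.0%). CAS was higher in both replicates in 16 of the 40 windows, 129 in 0, and the replicates went opposite ways in 3. Over the chromosome 13.1% of windows were higher on CAS in both replicates and 6.48% on 129, against 9.87% and 8.96% of all windows. The chromosome's windows hold fewer counts than those of Dlg2, 2.38 in replicate 1 and 2.94 in replicate 2, which leaves more ties among them. Per window, 129 had 0 to 6 counts (median 1) in replicate 1 and 0 to 7 (median 1) in replicate 2, and CAS had 0 to 5 (median 1) and 1 to 8 (median 4). In replicate 2 every window of the gene had a CAS count, while 10 had no 129 count. Both alleles together had 2.75 counts per window in replicate 1 and 5.85 in replicate 2, and the part of this difference between the libraries was not tested.

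Beside the gene the alleles were closer. The 1 Mb before Dlg2 had shares of 48.7% (37.2 to 60.3%) and 43.3% (33.6 to 53.3%), and the 1 Mb after it 45.0% (32.1 to 58.4%) and 48.5% (38.3 to 58.8%). These intervals overlap that of the gene in both replicates, except for the 1 Mb after it in replicate 2. Without the gene the chromosome stood at 46.1% and 47.2%. In 1 Mb bins over the whole table, edgeR's quasi-likelihood test of 129 against CAS passed 0 of 2095 bins (0%) without the replicate block, with 53 at an unadjusted p under 0.05, of which 4 of 122 lay on chromosome 7, all higher on CAS. DESeq2's Wald test also passed 0, with 6 unadjusted. With the block, 0.334% of bins passed in either direction and 0.0477% higher on CAS, which is 1 bin, at 91 to 92 Mb in Dlg2. Its counts were 15 on 129 and 30 on CAS in replicate 1, then 28 and 80, with a log2 ratio of -1.32 (SE 0.25, edgeR adjusted p = 0.0001457). This test uses the contrast that chose the chromosome, so the call is a description and no independent support. Measured from the level of the chromosome, with the block, 0.143% of bins passed (0.0477% on the CAS side), and this bin was the only one on chromosome 7, at -1.15 (SE 0.25, edgeR adjusted p = 0.003453). Without the block no bin passed on this measure (0%, 25 at an unadjusted p under 0.05, and 0 by DESeq2's Wald test with 3 unadjusted), and the value was -1.12 (SE 0.45, edgeR adjusted p = 0.9998). For this departure in bins of 500 kb and of 2 Mb with the block, the smallest edgeR adjusted p on the chromosome was 0.362 and 0.382.

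**Figure D5:**
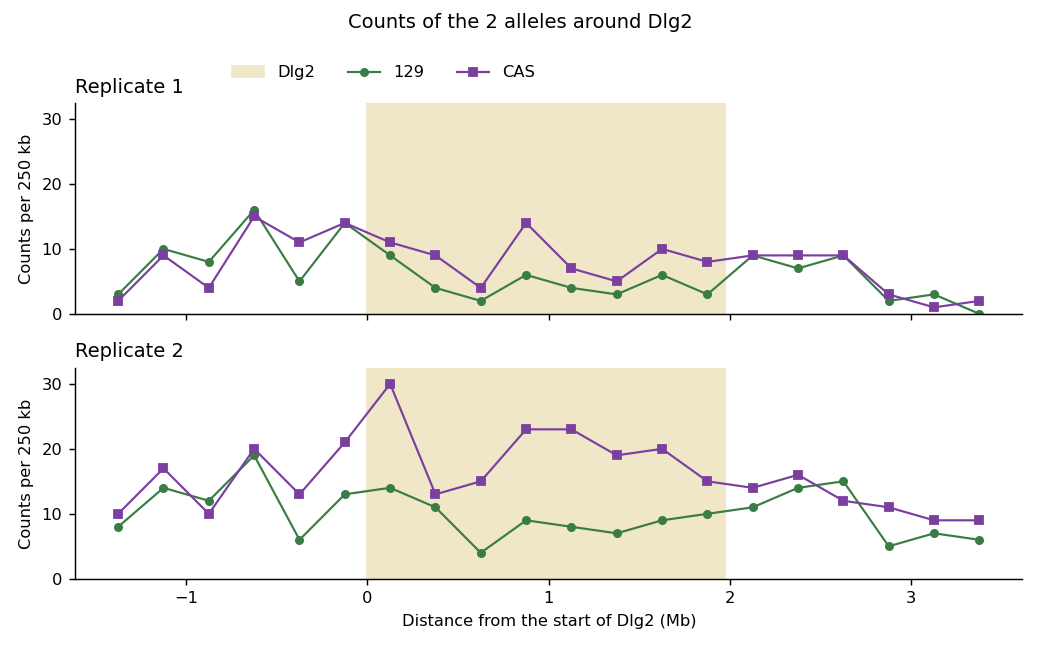
Counts per 250 kb on the 129 allele (green circles) and the CAS allele (purple squares) by distance from the start of Dlg2 in Mb, in replicate 1 (upper) and replicate 2 (lower), with the gene shaded. Over the gene CAS has 68 and 160 counts and 129 has 42 and 74, and outside it 129 is equal or higher in some of the points of each replicate, while CAS is also higher in others, such as those just before the gene in replicate 2.

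Other bins did not pass. On the CAS side, 78 to 79 Mb, with Ntrk3, a neurotrophin receptor gene, had 16 and 33, then 22 and 36 counts (log2 -0.83, SE 0.29, unadjusted p = 0.0215, edgeR adjusted p = 0.9986). The bin at 90 to 91 Mb, which holds the start of Dlg2, had 32 and 45, then 44 and 77 (log2 -0.63, SE 0.21, edgeR adjusted p = 0.9986). On the 129 side no bin had an unadjusted p under 0.05 in the unblocked test of 129 against CAS. The bin at 134 to 135 Mb, with Dock1, a guanine nucleotide exchange factor gene, had 15 and 10, then 20 and 13 counts (log2 0.64, SE 0.38, edgeR adjusted p = 0.9986). Measured from the level of the chromosome it was at 0.81 (SE 0.38, unadjusted p = 0.0379, edgeR adjusted p = 0.9998). The bins at 132 to 133 Mb (23 and 19, then 22 and 17) and 64 to 65 Mb (27 and 28, then 37 and 28) followed. Over the 122 bins of the chromosome the median log2 ratio was -0.15, against 0.003 over all bins, and 94 of the 122 were below 0. The choice of chromosome used this contrast, so nothing is read from these values.

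Long neural genes as a list leaned to CAS with the chromosome. Of 21 such genes, all with counts, 10 were higher on CAS in both replicates and 2 on 129. This list was assembled with earlier results known and its genes hold a median of 40 counts, against 11 over all coding genes of the chromosome. Over all 1644 coding genes of the chromosome with a count, 18.2% were higher on CAS in both replicates and 8.94% on 129, while among all 17074 such genes of the genome it was 15.5% and 14.5%. Ntrk3 had 6 counts on 129 and 17 on CAS in replicate 1, and 8 and 17 in replicate 2. Agbl1, a tubulin-modifying carboxypeptidase gene, had 11 and 16, then 16 and 23. Tenm4, a teneurin adhesion gene, had 25 and 34, then 33 and 38, and Otud7a, a deubiquitinase gene, 11 and 15, then 13 and 17. Gabrg3, a GABA receptor subunit gene, had 8 and 8, then 17 and 20. Nav2, a neuron navigator gene, was the other way round, with 24 and 22, then 30 and 26, and so was Dock1, with 12 and 8, then 11 and 9. Among all 23 genes of the chromosome over 300 kb, 10 were higher on CAS in both replicates, 3 on 129, and 10 neither.

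Single windows with 3 or more counts of difference in the same direction in both replicates numbered 14 on CAS and 4 on 129. These are 0.549% and 0.157% of the chromosome's windows, against 0.271% and 0.234% of all windows, a contrast the choice of chromosome used. The largest lay 12297 bp from Vmn2r68, a vomeronasal receptor gene, at chr7:85250001-85300000, with 0 on 129 against 6 on CAS, then 2 against 14. The window of Klhl25 at chr7:75850001-75900000, had 1 and 7, then 3 and 8, and the window before it, which holds the CG-rich promoter printed above, had 4 and 5, then 6 and 10. A window of Ntrk3 at chr7:78550001-78600000 had 3 and 9, then 3 and 7. Gas2 with Svip had 2 and 6, then 3 and 8, Akap13 had 3 and 7, then 3 and 7, and Tmc7 with Tmc5 had the same values as Akap13. The window of Gm1966 had no 129 count, against 3 and 5 on CAS. The window of U2af2, a splicing factor gene, had 5 and 10, then 5 and 8, Arnt2 1 and 4, then 4 and 7, and Eed 5 and 8 in both replicates. The 4 ranked after these, named here with their values known, hold Dlg2, Olfr494 with Olfr495, Ifitm3 with Ifitm6, and Shank2.

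On the 129 side, the window of Tgfb1, a growth factor gene, and Bckdha at chr7:25650001-25700000 had 5 on 129 against 2 on CAS, then 6 against 1. The window of Galp and Zscan5b had 8 and 5, then 7 and 3, and the window shared by Usp29, Zim3 and Aurkc, in the Peg3 domain, 5 and 1, then 5 and 2. The fourth lay 8255 bp from Chd2, a chromatin remodeler gene, over the noncoding RNA gene Chaserr, with 7 and 3, then 6 and 3. Over its own 3 windows Chd2 had the opposite difference, with 5 on 129 and 9 on CAS in each replicate. Single windows were not tested.

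Of the 10 windows with the most counts, 5 had alleles within 1 count of each other in both replicates, and the other 5 differed by 3 or more counts in at least 1 replicate. Trim28 shares its window at chr7:13000001-13050000 with Zbtb45, Chmp2a, Ube2m and Mzf1, with 8 and 11 counts, then 9 and 10. The second, at chr7:3200001-3250000, holds the miR-290 to miR-295 cluster, the main microRNA cluster of mouse embryonic stem cells, with 9 and 10, then 9 and 9. The window of Tenm4 with Mir708 had 7 and 12, then 8 and 10, Ltbp4 with Shkbp1 8 and 9, then 9 and 8, and Zfp324 with Zfp446 8 and 8, then 10 and 7. The ranks after these held Ppp1r12c with Tnnt1, Fam160a2 with Cckbr, Zfp667, Klf13 and U2af2. Of 88 microRNA genes on the chromosome, 84 lie in windows of the table and 76 in a window with a count.

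The mature microRNAs of that window are shown by shared seed, bases 2 to 8, in capitals, from the RefSeq annotation on GRCm38.p6. The seed pairs with target transcripts. The window holds 17 mature sequences of 9 genes. The first 3 below share 1 seed, the next 2 have seeds close to it, and the last 3 share another.
miR-291a-3p: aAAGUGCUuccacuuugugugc
miR-294-3p: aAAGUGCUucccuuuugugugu
miR-295-3p: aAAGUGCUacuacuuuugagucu
miR-290a-3p: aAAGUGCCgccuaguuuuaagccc
miR-291b-3p: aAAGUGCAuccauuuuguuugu
miR-290a-5p: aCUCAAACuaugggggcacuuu
miR-292a-5p: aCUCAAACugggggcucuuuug
miR-293-5p: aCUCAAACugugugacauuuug
All 8 lie on the plus strand between chr7:3218639-3218660 (miR-290a-5p) and chr7:3220815-3220837 (miR-295-3p), within 1 window of the table, so 1 value per allele and replicate stands for the whole cluster.

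Receptor clusters had 129 shares near those of the chromosome. Their 253 windows had 152 on 129 against 171 on CAS, then 292 against 339, shares of 47.1% (41.5 to 52.7%) and 46.3% (42.3 to 50.3%). On the other chromosomes receptor clusters stood at 49.9% and 51.0%. Relative to its chromosome the class had a log2 ratio of 0.01 (SE 0.55, edgeR adjusted p = 0.995), and 0.01 (SE 0.10, edgeR adjusted p = 0.963) with the block. By family, windows that overlap olfactory receptor genes (104) had 87 and 95, then 172 and 200 counts (47.8% and 46.2%). Vomeronasal windows (80) had 36 and 35, then 69 and 71 (50.7% and 49.3%), and Mrgpr windows (25) 10 and 14, then 13 and 19 (41.7% and 40.6%, with intervals of 22.1 to 63.4% and 23.7 to 59.4%). These intervals overlap, so no order of the families is read from them.

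Along the chromosome the receptor genes form 28 clusters, of which 23 have windows in the table and 10 have 10 or more counts in each replicate. Of those 10, 4 were under 50% in both replicates and 1 above. The largest olfactory cluster, Olfr543 to Olfr650-ps1 at 102.5 to 104.2 Mb, had 33 and 41, then 69 and 81 counts. The next, Olfr651 to Olfr692 at 104.6 to 105.4 Mb, had 6 and 9, then 14 and 25, and the cluster with Olfr494, at 107.8 to 108.9 Mb, 22 and 22, then 44 and 48. The mixed cluster of Olfr291 to Vmn2r79 at 84.9 to 87.0 Mb, which holds the window near Vmn2r68, had 25 and 29, then 64 and 89. The Mrgpr cluster, whose receptors mark itch and pain neurons, had 11 and 15, then 16 and 22 at 47.2 to 48.7 Mb. Vomeronasal cluster Vmn1r72 to Vmn1r84 at 11.7 to 12.4 Mb had 5 and 7, then 14 and 13.

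Many receptor windows are left out of the table. On a grid of 50 kb over the span of the chromosome's windows, receptor clusters take 368 windows, of which 115 (31.2%) are left out. The share left out was 8.83% of ordinary windows, 9.82% of imprinted domains and 0.595% of 504 gene-poor windows, 10.3% over the whole chromosome and 8.18% on the other chromosomes. In the Vmn1r block from 20.1 to 23.2 Mb (Vmn1r91 to Vmn1r166, 70 genes), 63 of 64 windows are left out and the remaining one has no count. The longest run left out, 56 windows at chr7:7200001-10000000, holds Vmn2r genes such as Vmn2r29 and Vmn2r45. The longest run without counts is 9 windows at chr7:14700001-15150000, with Obox pseudogenes, and the next is 8 windows at chr7:13600001-14000000 around the sulfotransferase genes Sult2a1, Sult2a2, Sult2a4 and Sult2a5. Of 28 two-cell-stage and oocyte genes on the list, such as Zscan4, Obox and Nlrp genes, 23 lie in windows of the table and 13 have a count, with a median of 3. Tle6 of this list was not matched. Of all coding genes of the chromosome, 1818 lie in windows of the table and 1644 have a count, with a median of 11.

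Imprinted domains gave 129 shares of 49.4% (41.7 to 57.1%) in replicate 1 and 44.5% (38.3 to 50.9%) in replicate 2, from 85 and 87, then 114 and 142 counts in 101 windows. Relative to the chromosome the log2 ratio was 0.02 (SE 0.51, edgeR adjusted p = 0.995), and 0.01 (SE 0.15, edgeR adjusted p = 0.963) with the block. Most of these windows, 67, belong to the Prader-Willi and Angelman domain, with 36 and 45, then 80 and 103 counts (44.4% and 43.7%). The other 34 windows had 49 and 42, then 34 and 39 (53.8% and 46.6%). The replicates differed by domain: the Kcnq1 domain had 24 and 21, then 12 and 19, the Peg3 domain 15 and 11, then 12 and 13, and the Igf2 and H19 domain 5 and 4, then 5 and 3. Inpp5f had 2 and 3 in each replicate, and Ampd3 3 and 3, then 3 and 1.

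Imprinted genes were counted by direction in both replicates. Of 14 paternally expressed genes with a count, 1 was higher on 129 in both replicates, Usp29 (12 on 129 and 8 on CAS, then 10 and 9), and 2 on CAS, Mkrn3 (2 and 3, then 4 and 5) and Inpp5f. Of 18 maternally expressed genes, 1 was higher on 129, Zim3 (5 and 1, then 5 and 2), which shares its window with part of Usp29, and 2 on CAS, Atp10a (4 and 8, then 11 and 12) and Kcnq1 (4 and 5, then 2 and 3). These counts are 7.14% and 14.3% of the paternal list and 5.56% and 11.1% of the maternal list. Over all coding genes of the chromosome with a count the shares were 8.94% on 129 and 18.2% on CAS, and nothing particular to imprinted genes is read from the counts. Snrpn had 9 and 8, then 14 and 25, Snhg14 9 and 9, then 16 and 27, and Ube3a, the Angelman syndrome ubiquitin ligase gene, 2 and 2, then 3 and 2. H19 had 2 and 1, then 1 and 1, Cdkn1c, a cell cycle inhibitor gene, 1 and 1, then 1 and 0, Peg3 3 and 3, then 2 and 1, Ndn 1 and 1, then 1 and 3, Magel2 2 and 2, then 3 and 3, and Igf2 1 and 1, then 2 and 1. Peg12 had 4 in every column. The others (Peg3os, Snurf, Ins2, Kcnq1ot1, Zim1, Zim2, Ampd3, Th, Ascl2, Tspan32, Cd81, Tssc4, Slc22a18, Phlda2, Nap1l4 and Osbpl5) had 0 to 9 counts per column, and neighbours often share a window and its counts. A window holds whole genes and their neighbours, so an imprinting control region, which is far shorter than a window, cannot be resolved, and the parent of each allele is not given in the sources used here.

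Markers of the cells were checked. Of 17 stem cell associated genes on the list, 13 lie in windows of the table and all 13 have a count, at a median of 24. Zfp296, Fgf4 and Fgf15 have no window in the table, and Lin28a was not matched. All 14 fibroblast and matrix genes lie in windows of the table and have a count, at a median of 15. Stem cell genes higher on CAS in both replicates were 5 (Trim28, Ccne1, Chd2, Eed and Ifitm3) and on 129 0. Ccne1, the cyclin that drives entry into S phase, had 4 and 8, then 6 and 9. Of the fibroblast genes, 6 were higher on CAS and 3 on 129. Those higher on CAS include Serpinh1, a collagen chaperone gene, with 4 and 6, then 3 and 4, and Adam12, a metalloprotease gene, with 3 and 4, then 5 and 7. Adam12 and Fgfr2 are also on the list of long neural genes, so they count in both lists. Tgfb1 (6 and 3, then 7 and 2), Pcsk6 (6 and 4, then 7 and 3) and Htra1 (6 and 5, then 5 and 3) were higher on 129. Beside these stand 18.2% (CAS) and 8.94% (129) of all coding genes of the chromosome, whose median of 11 counts is lower than that of either list. The part of the feeder fibroblasts in these counts was not tested.

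Genes that every cell uses were counted in the same way, beside 18.2% (CAS) and 8.94% (129) of all coding genes of the chromosome with a count, and nothing particular to a list is read from the counts. Of 13 ribosomal protein genes with a count, 3 were higher on CAS in both replicates and 0 on 129, among them Rpl18 (5 and 8, then 5 and 6) and Rps16 (4 and 5 in each). The highest counts belonged to Rplp2, with 12 and 13, then 12 and 11. Of 14 replication and genome maintenance genes, 4 were higher on CAS, Ercc1 (6 and 7 in each), Ccne1, Pold1 (1 and 2, then 0 and 1) and Blm, the Bloom helicase gene (2 and 4, then 3 and 4), and 1 on 129, Fanci (7 and 6, then 6 and 5). Lig1, a DNA ligase gene, had 5 in all 4 columns. Of 98 zinc finger genes with a count, 16 were higher on CAS and 10 on 129, and their 95 windows had shares of 48.5% and 48.4%.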

How the data were processed

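The counts are the authors' own values, deposited per 50 kb window, allele and replicate, as whole numbers with no visible normalization (4 columns, 0 further per-sample columns). Bowtie2, MACS2, SAMtools, bedtools and the mm10 build appear, with no role or version, in the submitters' processing notes. For alignment, assignment to alleles and the choice of windows, details were not given in the sources used here. Windows of chromosome 7, the gene lists and the classes were chosen with earlier results of these data known. Genes and promoters come from RefSeq on GRCm38.p6, coordinates are 1-based, and starts come from the promoter table for 85.8% of 2030 coding genes of the chromosome and otherwise from the gene's lowest coordinate. Of 141 list genes, 134 matched. Some list members are counted but not reported here by name.

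Counts were summed in 1 Mb bins or per chromosome and class and tested with edgeR 4.0.16 (quasi-likelihood, TMM or chromosome totals as offset, filterByExpr with a minimum of 10, Benjamini-Hochberg threshold 0.05 over the whole table, R 4.3.3). An SE was taken from the log2 ratio and its F statistic, and not below the Poisson one. The test bounds its p-value by the Poisson likelihood ratio in the same way. With the block, the p-values of the gene-poor class and of the 91 to 92 Mb bin were at this bound. Those p-values cover counting error alone and do not measure the spread between libraries. DESeq2 1.42.0 was an alternative. Each library yields a value for both alleles, so the replicate number pairs alleles; their deviations from the allele means correlated at r = 0.291 over all windows and 0.244 on chromosome 7. Named were bins that passed a fit with or without the block and the 3 with the smallest p on each side, the 10 windows per side with the largest differences of 3 or more counts in both replicates, the 10 windows with most counts, all imprinted list genes, 2 to 6 genes of each other list by most counts, receptor clusters by family, and the longest runs left out or without counts.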

Additional observations from a re-analysis of the deposited data

How the results depend on the processing

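The 129 share of chromosome 7 (46.3%) ranged from 45.9% to 46.7% when either replicate was left out. It was 47.0% in windows with 4 or more counts, 47.0% with at most 3 counts per column and window, 46.9% without gene-poor windows and 46.9% with the column totals over all chromosomes made equal, so its direction did not change. Without the windows of Dlg2 it was 46.6%. Counts per ordinary window were 3.02, or 2.75 with windows left out of the table at 0.

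The replicate block changed the bin calls: of 0 bins on the chromosome without it, 1 passed with it in 1 Mb bins, 1 in 500 kb bins and 1 in 2 Mb bins for 129 against CAS, and 1 in 1 Mb bins for the departure from the chromosome. Over all chromosomes the calls were 0 and 7, and 0 and 3 for the departure. The blocked fits in other bin sizes and without Dlg2 were chosen after seeing the data. With the block and without the Dlg2 windows, the log2 ratio of receptor clusters was -0.015 and that of imprinted domains -0.013. These are opposite in sign to the unblocked 0.011 and 0.022. With the block and with the Dlg2 windows both were 0.007, from the same counts of these classes. All these values are under their SE. The cause was not tested. Of 217 values under alternatives, 2 changed sign (those of receptor clusters and imprinted domains), 6 passed the threshold where the value reported did not, 15 moved by more than their spread, and 194 did none of these. Of the 61 values for 10 Mb segments, 6 moved by over 1 SD. Leaving out a replicate leaves no residual degrees of freedom for the fits. Depth limits single windows, which hold at most 14 counts per column.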
